A study of Mus musculus with 32 samples.

Results

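The 36 genes described here are PPARalpha itself (Ppara), its coactivator Ppargc1a, the hormone Fgf21 and 33 genes of fatty acid uptake, storage, oxidation and ketogenesis that are well-known targets of PPARalpha or act beside those targets in the liver. They were chosen by gene symbol, and all 36 are in the deposited table of 54532 genes. PPARalpha is a nuclear receptor that binds fatty acids and, as a dimer with RXR, switches on genes for burning fat. Its targets carry fatty acids into mitochondria on carnitine, shorten them by beta-oxidation in mitochondria and peroxisomes, and turn the acetyl-CoA into ketone bodies, most strongly during fasting.

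Livers came from 12-week-old C57BL/6 mice in 8 groups of 4: male and female wild type (WT) and Cyp2c70 knockout (KO) mice, on chow or on chow with SC-435, an inhibitor of the ileal bile acid transporter (0.006% of the diet, about 11 mg/kg/day). Cyp2c70 makes muricholic acids, the hydrophilic bile acids of mice, and the KO line came from founder mice made with CRISPR-Cas9 aimed at exon 2, so that all tissues carry the edit. The mice ate freely and were not fasted, so these are levels in fed mice, and the hour of collection is not given in the sources used here. The comparisons ask how the KO and SC-435 changed liver gene expression, each sex apart.

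Between 36476021 and 44771350 reads were counted to genes per library (median 42232543). Cyp2c70 stood at 522 to 851 CPM (read counts scaled to the size of each library) in WT mice on chow and at 149 to 187 CPM in KO mice on chow. Markers of hepatocytes (10 genes) summed to 59970 CPM or more in every library. Of the male WT mice on chow, replicate 1 stood apart: its scaling factor was 0.639 against 0.894 for the next lowest library, and its mean correlation with its group was 0.867 against 0.945 for the next lowest. For each male comparison that uses this mouse, the number of members called is therefore given with and without it.

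Promoter sequence from RefSeq (GRCm38.p6) was at hand for 31 of the 36 genes. PPARalpha with RXR prefers a direct repeat with 1 base between its copies, searched here on both strands as AGGNCA, any base, AGGNCA. That motif was in 125 of 32851 promoter windows of 300 bases (0.381%), and among the members only in Fabp1. A single copy AGGTCA, searched on both strands, which can lie within the longer motif and which other nuclear receptors also bind, was in 16.3% of windows and in 8 members, namely Acadm, Acadvl, Acot3, Acot4, Cd36, Cpt1a, Fabp1 and Plin2. The 250 bases before the RefSeq start of Fabp1 are shown because Fabp1 carries the long motif and was among the members that moved most, and those of Acadm and Cpt1a because they hold the short motif in an enzyme of mitochondrial beta-oxidation and in the gate to it. Capitals mark the motif, which lies on the opposite strand in all 3, and each stretch is written 5′ to 3′ toward its gene.
Fabp1, chr6:71199629-71199878, plus strand: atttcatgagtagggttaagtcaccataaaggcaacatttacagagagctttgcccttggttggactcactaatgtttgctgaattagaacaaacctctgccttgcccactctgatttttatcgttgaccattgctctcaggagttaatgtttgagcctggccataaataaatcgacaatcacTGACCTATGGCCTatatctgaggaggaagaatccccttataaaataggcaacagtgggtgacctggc
Acadm, chr3:153944644-153944893, minus strand: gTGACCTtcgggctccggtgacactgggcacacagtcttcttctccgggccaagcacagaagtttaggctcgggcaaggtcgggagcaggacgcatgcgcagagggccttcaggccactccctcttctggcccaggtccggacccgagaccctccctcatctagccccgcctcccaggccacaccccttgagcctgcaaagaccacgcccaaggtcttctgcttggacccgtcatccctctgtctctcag
Cpt1a, chr19:3323051-3323300, plus strand: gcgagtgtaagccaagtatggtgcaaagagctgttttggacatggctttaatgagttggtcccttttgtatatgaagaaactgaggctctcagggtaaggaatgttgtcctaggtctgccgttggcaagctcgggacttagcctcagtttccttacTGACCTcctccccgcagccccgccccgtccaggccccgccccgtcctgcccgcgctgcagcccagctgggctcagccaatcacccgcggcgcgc
The Fabp1 motif lay 67 to 55 bases before the RefSeq start. The annotation of the deposited table starts Fabp1 earlier, at 71199827, so the end of the stretch shown lies inside that gene model. The motif lies before both starts. The short motifs lay 249 to 244 bases before the RefSeq start in Acadm and 94 to 89 bases before it in Cpt1a. A match describes letters only and shows no binding.

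The members differed widely in abundance in WT mice on chow. Per kilobase of gene length (RPKM), Fabp1, the fatty acid binding protein of the hepatocyte cytosol, led with 4220 to 6070 in females and 3670 to 5040 in males. The thiolases Acaa1b (peroxisome) and Acaa2 (mitochondrion) came next, with means of 705 and 625 RPKM in females, and their ranges over mice overlapped. Enzymes at the entry of beta-oxidation were lower, with means of 101 RPKM for Cpt1a and for Acadm and 133 RPKM for Acadl in females. At the bottom in females were Ppargc1a at 1.68 and Fgf21 at 2.09 RPKM, both with overlapping ranges. Fgf21 was counted with 6 to 173 reads per library, so its values carry a large counting error.

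**Figure D1:**
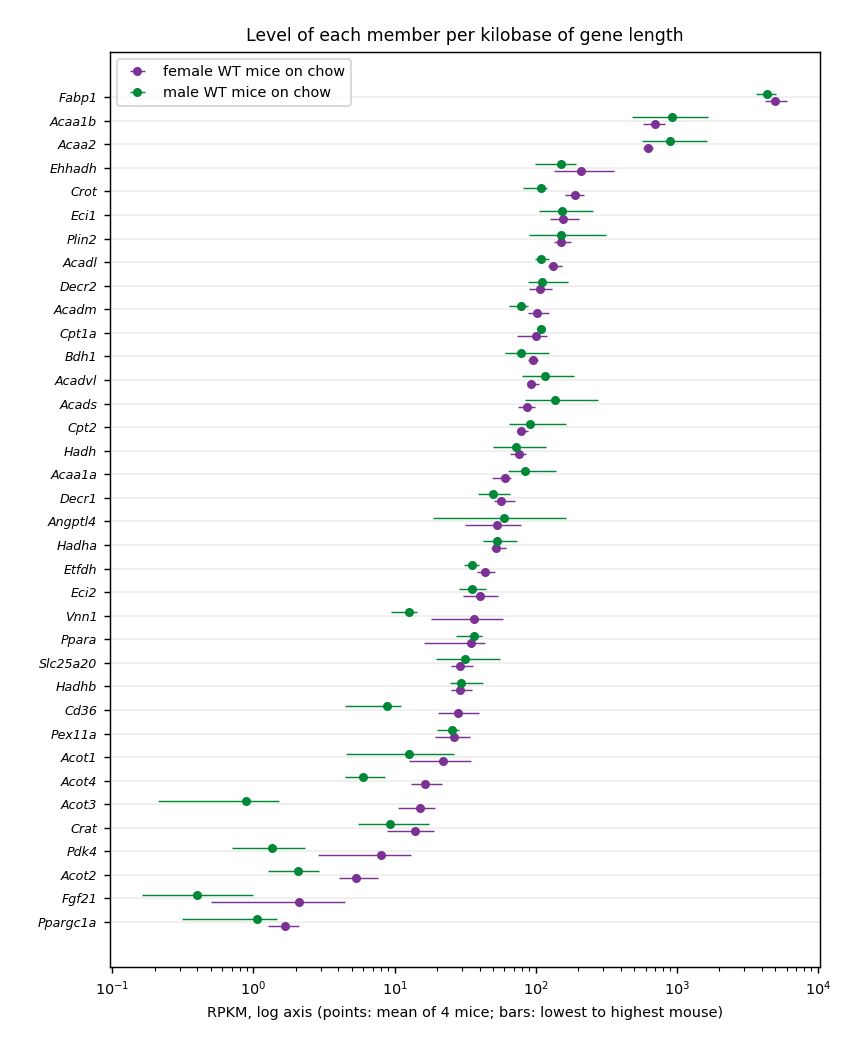
Level of each member per kilobase of gene length (RPKM, log axis) in WT mice on chow, ordered by the female mean; points are means of 4 mice and bars run from the lowest to the highest mouse. Fabp1 lies above all other members, and Acot3 and Pdk4 lie lower in males than in females.

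Some members share sequence with other genes, so reads may be split between them. Among 50-base words of the annotated transcripts, 39.6% of Acaa1b and 17.1% of Acaa1a are shared with other genes, mostly with each other. The same holds for 27.7% of Acot2 and 19.2% of Acot1, and the 4 thioesterase genes Acot2, Acot1, Acot4 and Acot3 lie in a row on chromosome 12 (84009490 to 84018371 for Acot1). Acadvl (26.9%, with Dvl2), Acot3 (21.3%), Hadhb (19.7%), Acot4 (13.4%), Eci2 (11.1%) and Bdh1 (11.1%) share words as well. Levels of these 10 genes are uncertain to that extent. Fabp1, Cd36, Angptl4, Cpt2 and Ehhadh share no such word with another gene.

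In female mice on chow, the KO lowered much of the set. Of the 36 members, 22 were lower in KO than in WT mice at an adjusted p under 0.05 and none was higher (edgeR quasi-likelihood test, p-values adjusted by Benjamini-Hochberg across the whole table). Among all 16205 genes tested, 5.05% were lower and 9.83% higher. The median log2 fold change was -0.51 over the members and -0.02 over all genes. In 5 members the fall was beyond 1 on the log2 scale (Angptl4, Fabp1, Acot1, Pex11a and Crat), as in 1.01% of all genes. In the same 22 members, every KO mouse lay below every WT mouse, which held for 10.5% of all genes in that direction.

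**Figure D2:**
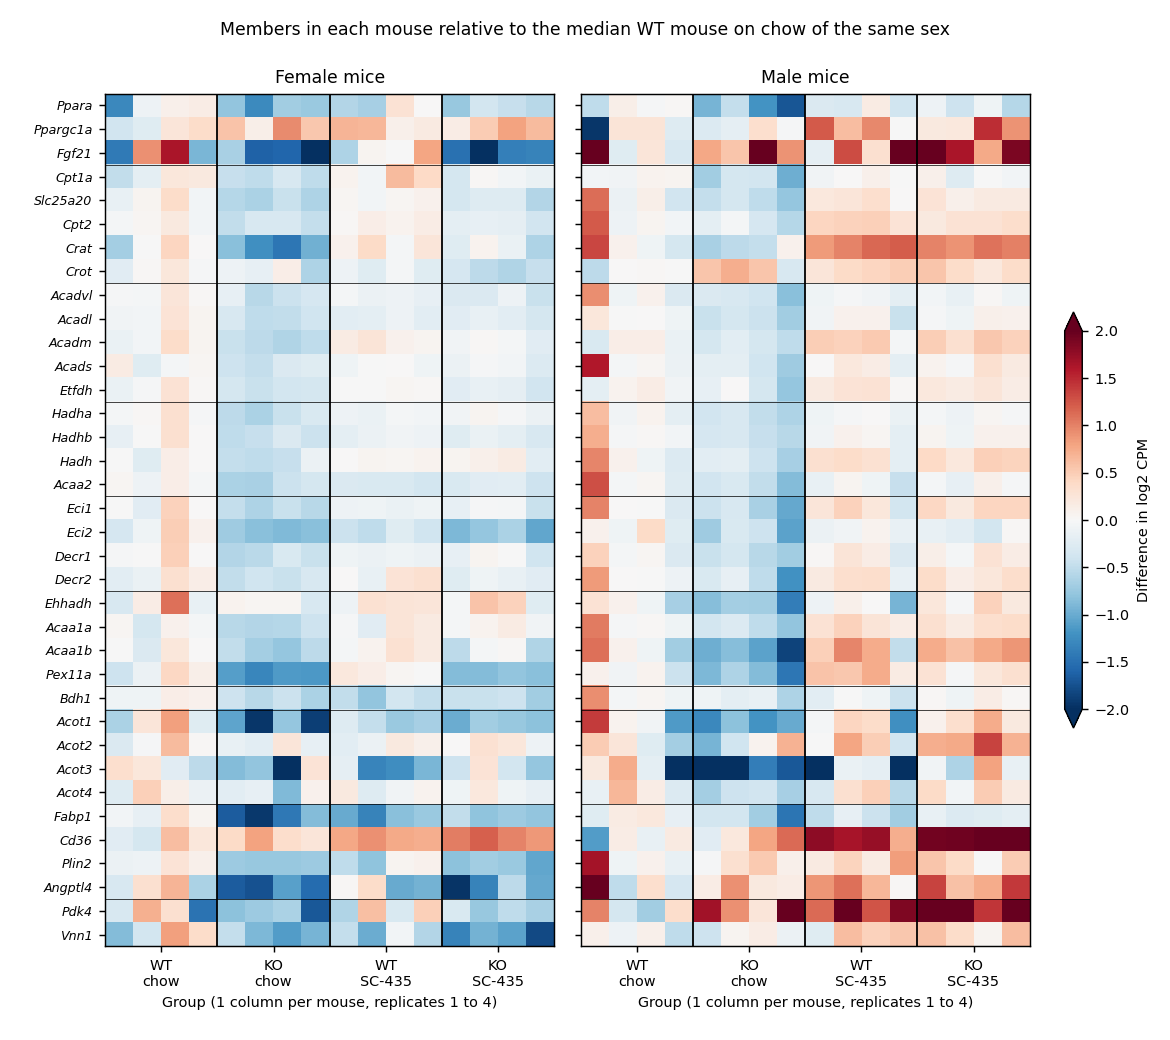
Level of each member in each of the 32 mice, as the difference in log2 CPM from the median WT mouse on chow of the same sex; rows are members grouped by role, columns are mice, and colours stop at 2 in either direction. Female KO mice on chow are blue in nearly all rows, and 1 male WT mouse on chow, replicate 1, is red in many rows.

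Among the genes of uptake and storage, Fabp1 stood at 2514, 2333, 3359 and 2733 CPM in the 4 female WT mice and at 824, 690, 978 and 1445 CPM in the KO mice. The highest KO mouse was thus well under the lowest WT mouse, and Fabp1 fell by 1.45 on the log2 scale (SE 0.22, edgeR adjusted p = 0.0031). Angptl4, a secreted inhibitor of lipoprotein lipase, stood at 129, 202, 259 and 104 CPM in WT and at 51.1, 48.2, 76.2 and 55.7 CPM in KO mice. It had the lowest log2 fold change among the members called, -1.56 ± 0.27 (SE, edgeR adjusted p = 0.0059). Plin2, which coats lipid droplets, fell by 0.77. Cd36, a fatty acid transporter of the cell membrane, was the exception of this group, at 72.8 to 143 CPM in WT and 110 to 163 CPM in KO mice (log2 fold change 0.37 ± 0.21, edgeR adjusted p = 0.26).

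Genes of carnitine transport and of the mitochondrial spiral moved less far, but many of them moved. Crat, which moves acetyl groups between coenzyme A and carnitine, was at 47.5, 75.6, 103 and 76.5 CPM in WT and at 42.4, 32.6, 27.8 and 39.3 CPM in KO mice. The lowest WT mouse was only just above the highest KO mouse, and the log2 fold change was -1.07 ± 0.21 (edgeR adjusted p = 0.0099). The carnitine carrier Slc25a20 fell by 0.61 and Cpt2, the inner-membrane transferase, by 0.41. Cpt1a, the outer-membrane transferase that gates the pathway, was at 315, 386, 519 and 510 CPM in WT and 322, 312, 355 and 312 CPM in KO mice, and the groups overlapped (-0.39 ± 0.16, edgeR adjusted p = 0.13).

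Of the acyl-CoA dehydrogenases and their electron acceptor, Acadvl, Acadl, Acadm and Etfdh were called lower, with log2 fold changes from -0.40 to -0.57, and Acads was not (-0.32 ± 0.11, edgeR adjusted p = 0.079). Both subunits of the trifunctional protein, Hadha at -0.53 and Hadhb at -0.45, and the last enzyme Acaa2 at -0.50 were lower. Hadha and Hadhb are neighbours on chromosome 5 with 85 bases between them. Acaa2 was at 963, 873, 1029 and 920 CPM in WT and 606, 600, 696 and 739 CPM in KO mice. All 4 auxiliary enzymes that prepare unsaturated fatty acids for oxidation were lower (Eci1, Eci2, Decr1 and Decr2), with Eci2 at -0.86 the lowest of them.

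Peroxisomal members followed the same direction. Pex11a, which takes part in peroxisome division, was at 61.8 to 110 CPM in WT and 33.4 to 38.6 CPM in KO mice (-1.17 ± 0.16, edgeR adjusted p = 0.0022). The thiolases Acaa1a and Acaa1b fell by 0.45 and 0.59. Acaa1a was at 288, 218, 297 and 270 CPM in WT and 189, 186, 188 and 209 CPM in KO mice. Acaa1b was at 1379, 1136, 1627 and 1392 CPM in WT and 982, 869, 808 and 966 CPM in KO mice, so both thiolases were below the WT range in every KO mouse. Ehhadh, the bifunctional enzyme of peroxisomes, overlapped between groups (-0.32 ± 0.28, edgeR adjusted p = 0.47).

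Bdh1, which makes beta-hydroxybutyrate from acetoacetate, was at 346, 344, 403 and 388 CPM in WT and 274, 249, 270 and 235 CPM in KO mice (-0.50 ± 0.10, edgeR adjusted p = 0.011). Among the acyl-CoA thioesterases, which free fatty acids from coenzyme A, only the cytosolic Acot1 was called. It was at 49.95, 91.7, 137 and 65.6 CPM in WT and 37.1, 20.1, 45.4 and 21.0 CPM in KO mice (-1.45 ± 0.35, edgeR adjusted p = 0.021). That call rested on few mice: without WT replicate 2 the adjusted p was 0.0505, and without KO replicate 2 it was 0.069. Acot3 spread too widely to tell, at 66.3, 61.5, 45.1 and 36.5 CPM in WT and 28.9, 30.5, 9.06 and 63.6 CPM in KO mice (-0.65 ± 0.44, edgeR adjusted p = 0.35).

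The regulators were not called in females. Ppara was at 62.2, 142, 163 and 168 CPM in WT and at 88.03, 63.2, 93.9 and 90.5 CPM in KO mice, so that WT replicate 1 lay below all 4 KO mice and the other WT mice above them (-0.65 ± 0.27, edgeR adjusted p = 0.13). Without that mouse the log2 fold change was -0.89 (edgeR adjusted p = 0.0098). Its scaling factor (0.959) and mean correlation with its group (0.978) did not set it apart, however. With all mice Ppara was not called. Fgf21, a liver hormone of fasting, was at 0.472, 2.55, 4.25 and 0.692 CPM in WT and 0.838, 0.403, 0.413 and 0.170 CPM in KO mice (-2.08 ± 0.69, edgeR adjusted p = 0.069). Pdk4, which holds back pyruvate oxidation when fat is burned, was at 22.4, 45.8, 34.8 and 10 CPM in WT and 15.7, 16.8, 18 and 8.58 CPM in KO mice (-0.91 ± 0.40, edgeR adjusted p = 0.15). In both genes the WT mice differed among themselves about as much as the groups did.

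The female count moved with 1 library: without KO replicate 2 on chow, 8 members were lower. Scaled by library size alone, 11 were lower and 1 higher. The members that called in each of 16 alternative settings were Slc25a20, Crat, Eci2, Pex11a, Fabp1, Plin2 and Angptl4. Markers of other cells moved with the genotype as well. Summed hepatocyte markers were at 101600 to 127800 CPM in female WT and 65170 to 89570 CPM in KO mice on chow, with 4 of the 10 genes called lower, 1 higher and a median log2 fold change of -0.12. Summed cholangiocyte markers (8 genes) were at 38.1 to 72.7 and 136 to 292 CPM, macrophage markers (10 genes) at 423 to 493 and 640 to 913 CPM, and stellate cell markers (8 genes) at 213 to 290 and 346 to 815 CPM, with none of these genes at 0 in any of the 8 livers. Alb made up most of the hepatocyte sum, at 72720 to 96680 CPM in WT and 37630 to 57980 CPM in KO mice. Most of the cholangiocyte sum came from Spp1, at 27.0 to 55.6 CPM in WT and 117 to 251 CPM in KO mice. In bulk liver, fewer hepatocytes and less RNA per hepatocyte cannot be told apart, and the part of these cell types in the members' levels was not tested.

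In male mice on chow, the same contrast called no member. The edgeR test called 0.151% of 15862 genes lower and 0.933% higher. On simulated data for this contrast it found 4 of 98 randomly drawn genes changed by 1 on the log2 scale, and DESeq2 found 25. DESeq2 also called 51 unchanged genes, beside 110 changed genes called in the right direction. For edgeR these numbers were 3 and 72, and for voom 6 and 68. The simulation held no changes below 1 and no shift shared by many genes of a mouse. The detection rate for the members was thus not tested, and a missing call does not show that a member was unchanged. The members' median log2 fold change was -0.62, against 0.04 for all genes, with 29 of 36 below 0. Without WT replicate 1 the median was -0.36. At an unadjusted p under 0.05, 21 members were lower and 2 higher, DESeq2 called 8 lower, and voom called 15 lower and 2 higher. For these other rules the share of all genes is not given, so the counts cannot be set against it. In 16 members every KO mouse lay below every WT mouse, which held for 7% of all genes. Peroxisomal members were among them: Acaa1b was at 3261, 1616, 1421 and 938 CPM in WT and 773, 844, 724 and 419 CPM in KO mice (-1.35 ± 0.39, edgeR adjusted p = 0.15).

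Ppara in males was at 104, 161, 146 and 152 CPM in WT and at 78.0, 107, 64.8 and 45.5 CPM in KO mice (-0.89 ± 0.26, edgeR adjusted p = 0.15). Cpt1a was at 448, 446, 492 and 486 CPM in WT and at 288, 365, 363 and 236 CPM in KO mice (-0.54 ± 0.19, edgeR adjusted p = 0.22). The KO mice were below all WT mice in Cpt1a and overlapped with 1 WT mouse in Ppara. Angptl4, by contrast, was at 542, 61.8, 112 and 69.4 CPM in WT, where replicate 1 alone set the mean, and at 97.05, 166, 100 and 97.9 CPM in KO mice. Pdk4 was at 8.12, 3.18, 2.48 and 5.18 CPM in WT and 13.1, 7.70, 4.79 and 21.6 CPM in KO mice (1.37 ± 0.52, edgeR adjusted p = 0.26).

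Without WT replicate 1, Ppara (-1.02, edgeR adjusted p = 0.042), Pex11a (-0.76), Acadl (-0.40) and Hadhb (-0.36) were called lower in male KO mice. The sign of Angptl4 turned, from -0.73 with the mouse to 0.55 without it, and neither value was called. Besides Angptl4, that mouse had the highest level of its group in Crat (94.7 CPM against 29.5 to 39.9), Acaa2 (2499 against 854 to 1046) and Bdh1 (484 against 237 to 259). Its summed hepatocyte markers were at 188400 CPM, with the lowest of its group at 86520 CPM. Its adipocyte markers (6 genes) were at 126 CPM against 7.46, 8.33 and 96.7 CPM in the other mice of its group, where up to 4 of the 6 were at 0, and its clock genes (12 genes) at 426 CPM against 802 to 825 CPM. The part of these in the members' levels was not tested. In male KO mice on chow, clock genes summed to 333 to 400 CPM. The sum hides 2 directions among the 12 genes, none of them called. Against WT mice, Arntl (1.84), Npas2 (1.76) and Clock (0.55) had log2 fold changes above 0. All other clock genes were below 0, down to -2.79 for Bhlhe41 and -2.95 for Dbp. Summed cholangiocyte markers were at 25.7 to 36.2 CPM in male WT and 146 to 1159 CPM in KO mice on chow, with 4 of 8 genes called higher and up to 1 at 0 in a WT mouse. Most of the sum in KO mice came from Spp1, at 124 to 1121 CPM. Stellate cell markers were at 168 to 207 and 299 to 999 CPM, and macrophage markers overlapped. The part of clock genes and of these cell types in the genotype contrast was not tested either.

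**Figure D3:**
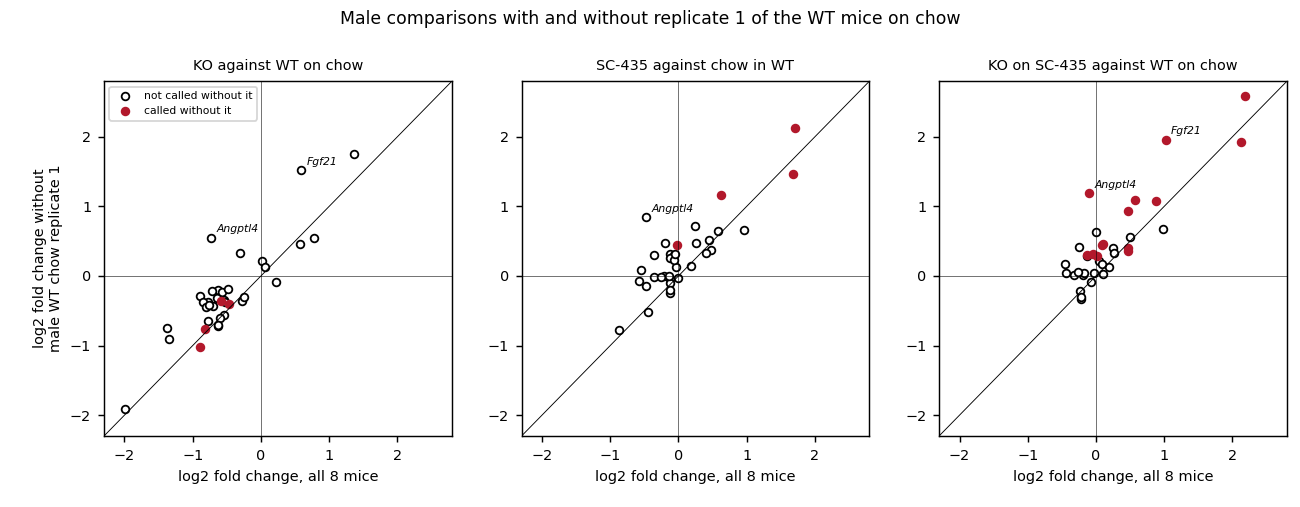
log2 fold change of each member in 3 male comparisons, with all 8 mice (horizontal) and without replicate 1 of the WT mice on chow (vertical); filled points are called at an adjusted p under 0.05 without that mouse. Points above the diagonal have a higher fold change without it, and Angptl4 crosses from below 0 to above it in all 3.

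SC-435 raised part of the set in female KO mice. Of the 36, 9 were higher than in KO mice on chow and none was lower, against 8.56% higher and 9.23% lower of all 16332 genes tested (edgeR). No log2 fold change passed 1, and the median was 0.24 over the members and -0.02 over all genes. The members that rose came from most steps of the pathway: Crat in carnitine transport, Acadm among the dehydrogenases, Hadha and Hadh in the spiral, Eci1 among the auxiliary enzymes, Acaa1a and Pex11a in peroxisomes, and Fabp1 and Cd36 in uptake. These comparisons share the KO mice on chow with the genotype contrast, so a KO mouse that is low by chance moves a gene down in one and up in the other.

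Crat was at 64.2, 79.5, 69.6 and 49.8 CPM in female KO mice on SC-435, all above the chow-fed KO mice (0.87 ± 0.16, edgeR adjusted p = 0.0076). Acaa1a was at 271, 293, 313 and 266 CPM (0.55 ± 0.09, edgeR adjusted p = 0.0043). Fabp1 was at 1871, 1504, 1578 and 1522 CPM, narrowly above the highest KO mouse on chow (0.70 ± 0.20, edgeR adjusted p = 0.037). Cd36, whose values per mouse are given because of how it moved, was at 189, 213, 185 and 169 CPM against 122, 163, 119 and 110 CPM on chow (0.54 ± 0.13, edgeR adjusted p = 0.019). Ppara was at 90.5, 118, 110 and 104 CPM, overlapping with chow (0.32 ± 0.13, edgeR adjusted p = 0.13). Among the members that were lower in KO mice, those that moved least with SC-435 were Bdh1 (-0.0033 ± 0.095), Eci2 (-0.03 ± 0.10) and Acadvl (0.07 ± 0.11).

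Crat, Acadm and Acaa1a stayed called in all 16 alternative settings. The count was 5 without KO replicate 2 on chow or without KO replicate 3 on SC-435, and 4 without KO replicate 2 on SC-435. Fabp1 lost its call, with adjusted p from 0.059 to 0.10, without any 1 of 7 of the 8 mice (all but KO replicate 4 on chow), and Cd36 without KO replicate 2 on SC-435 (0.064). With the replicate number as a block, 5 members were called, and scaled by library size alone, 5 were called higher and 2 lower. Summed macrophage markers were at 365 to 534 CPM in female KO mice on SC-435, cholangiocyte markers at 101 to 147 CPM and hepatocyte markers at 93720 to 107100 CPM. Stellate cell markers were at 295 to 379 CPM, with 3 of 8 genes called lower relative to chow. Clock genes summed to 294 to 566 CPM on chow and 538 to 651 CPM on SC-435, with 3 of 12 called higher and 3 lower. The part of these cell types and of clock genes in the members' levels was not tested.

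**Figure D4:**
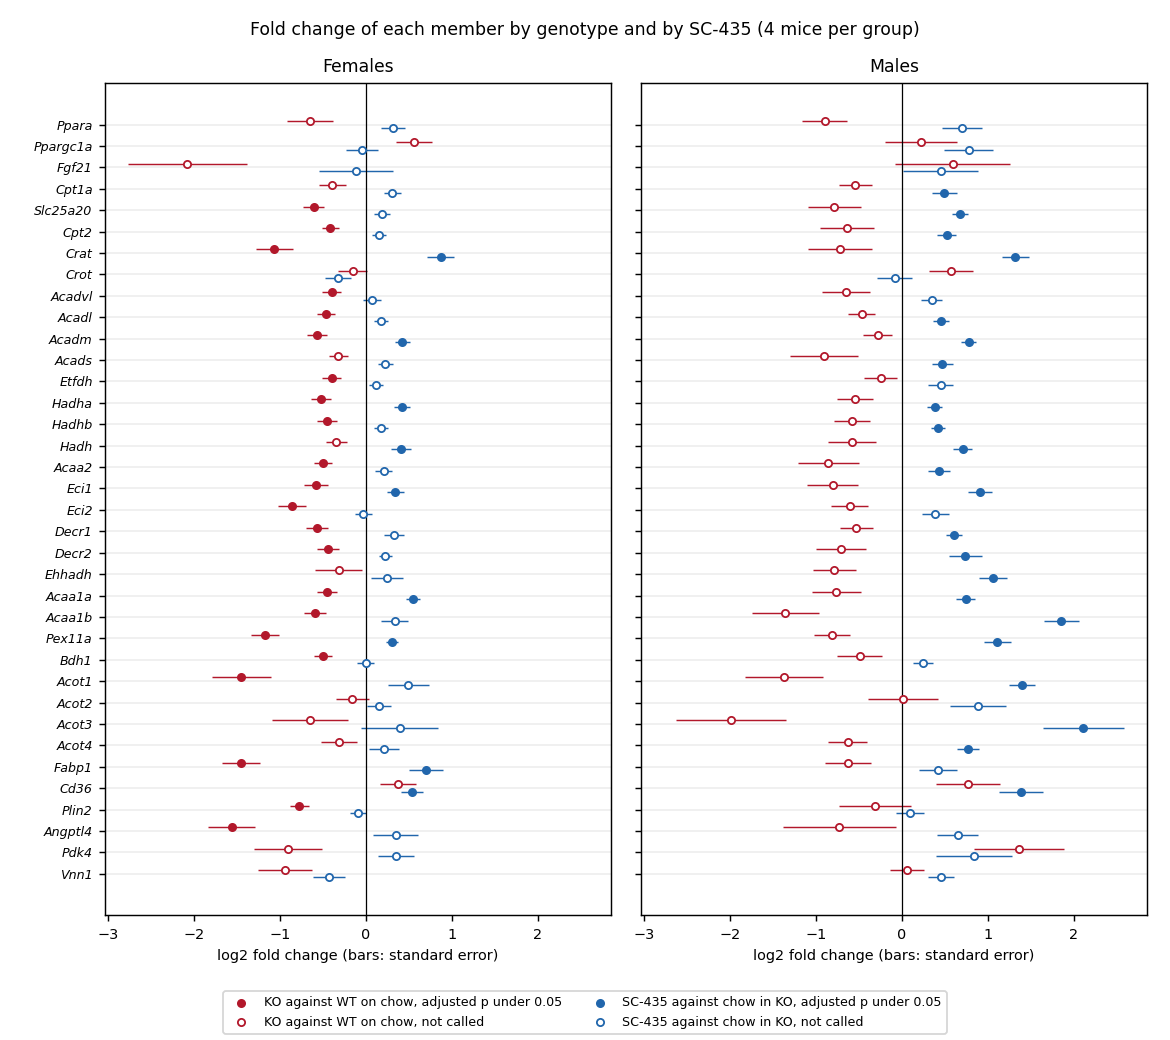
log2 fold change (bars: standard error) of each member for KO against WT on chow (red) and for the SC-435 diet in KO mice relative to chow (blue), females left and males right, 4 mice per group; filled points have an adjusted p under 0.05. In females 22 red points to the left of 0 are filled and 9 blue points to the right, and in males no red point and 22 blue points.

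In male KO mice SC-435 raised 22 of the 36 members and lowered none, where 8.8% of 15984 genes were higher and 8.36% lower (edgeR). The median log2 fold change was 0.66 over the members and -0.03 over all genes, and 35 of 36 values lay above 0. In 7 members the rise was beyond 1 on the log2 scale, as in 1.88% of all genes: Acot3, Acaa1b, Acot1, Cd36, Crat, Pex11a and Ehhadh. In 27 members every KO mouse on SC-435 lay above every KO mouse on chow, which held for 15.1% of all genes.

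The largest rises were in thioesterases and peroxisomes. Acot3, a peroxisomal thioesterase, was at 0.224, 0.621, 1.14 and 0.917 CPM in male KO mice on chow and at 2.93, 1.98, 5.39 and 2.76 CPM on SC-435 (2.11 ± 0.47, edgeR adjusted p = 0.019). It is scarce in males, and without KO replicate 3 on SC-435 its adjusted p was 0.052. Acaa1b was at 2548, 2267, 2572 and 2794 CPM on SC-435, above the highest value on chow of 844 CPM (1.85 ± 0.20, edgeR adjusted p = 0.0012). Acot1 was at 15.9, 21.9, 17.01 and 19.3 CPM on chow and at 41.1, 49.4, 65.0 and 44.6 CPM on SC-435 (1.40 ± 0.15, edgeR adjusted p = 0.0012). Pex11a rose by 1.11, Ehhadh by 1.07 and Acaa1a by 0.75. With Acaa1b, all 4 members grouped under peroxisomal beta-oxidation and peroxisome division were thus called.

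Most mitochondrial members rose by less than 1 on the log2 scale. The exception was Crat, which was at 24.0, 26.1, 27.2 and 39.9 CPM on chow and at 74.6, 69.99, 79.8 and 76.1 CPM on SC-435, the farthest of the carnitine genes (1.32 ± 0.16, edgeR adjusted p = 0.0016). Cpt1a was at 501, 390, 462 and 452 CPM on SC-435 (0.50 ± 0.15, edgeR adjusted p = 0.048), and Slc25a20 and Cpt2 rose by 0.67 and 0.52. Acadm rose by 0.78, Acads by 0.47 and Acadl by 0.46, and all 4 members of the spiral rose, from 0.39 (Hadha) to 0.71 (Hadh). Among the auxiliary enzymes for unsaturated fatty acids, Eci1, Decr2 and Decr1 rose by 0.91, 0.74 and 0.61. Bdh1 was at 258, 239, 280 and 256 CPM on SC-435 and at 237, 220, 227 and 165 CPM on chow, a difference that was not called (0.25 ± 0.12, edgeR adjusted p = 0.15).

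Cd36 was at 30.0, 40.7, 60.6 and 76.7 CPM in male KO mice on chow and at 134, 135, 146 and 143 CPM on SC-435 (1.39 ± 0.26, edgeR adjusted p = 0.0099). Adipocytes also carry Cd36, and summed adipocyte markers were at 86.1, 135, 11.6 and 15.8 CPM in these SC-435 mice against 7.04 to 8.99 CPM on chow. The part of adipocytes in the level of Cd36 was not tested. Fabp1 was at 1873, 1869, 1482 and 870 CPM on chow and at 2181, 2000, 2044 and 2102 CPM on SC-435 (0.42 ± 0.22, edgeR adjusted p = 0.19). Angptl4, at 225, 133, 147 and 234 CPM on SC-435, and Pdk4, at 26.3, 25.0, 11.0 and 24.3 CPM, overlapped with chow.

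Of the regulators, Ppara was at 139, 112, 140 and 99.8 CPM in male KO mice on SC-435 (0.70 ± 0.23, edgeR adjusted p = 0.062). It was called without KO replicate 2 on chow (0.93, edgeR adjusted p = 0.017), the mouse with the highest Ppara of its group (107 CPM). The scaling factor of that mouse (1.007) and its mean correlation with its group (0.974) did not set it apart. With all mice Ppara was not called. Fgf21 was at 0.382, 0.322, 1.01 and 0.423 CPM on chow and at 1.01, 0.733, 0.377 and 0.877 CPM on SC-435 (0.45 ± 0.44, edgeR adjusted p = 0.49). Leaving out 1 mouse at a time left 16 to 25 members called, and Crat, Acadm, Eci1, Decr1, Ehhadh, Acaa1b, Pex11a and Cd36 kept their call in all 16 alternative settings. With the 4 male groups in a single fit, 8 members were called. The call of Cpt1a was lost, with adjusted p from 0.056 to 0.13, without any 1 of 7 of the 8 mice (all but KO replicate 2 on chow). Summed cholangiocyte markers were at 146 to 1159 CPM in male KO mice on chow and at 50.8 to 62.0 CPM on SC-435, and hepatocyte markers overlapped at 59970 to 92340 and 74270 to 101700 CPM. Stellate cell markers were at 299 to 999 and 147 to 222 CPM, and clock genes at 333 to 400 and 428 to 695 CPM, with 2 of 12 called higher. Log2 fold changes of single clock genes ran from -1.07 to 1.55. The part of these in the members' levels was not tested.

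**Figure D5:**
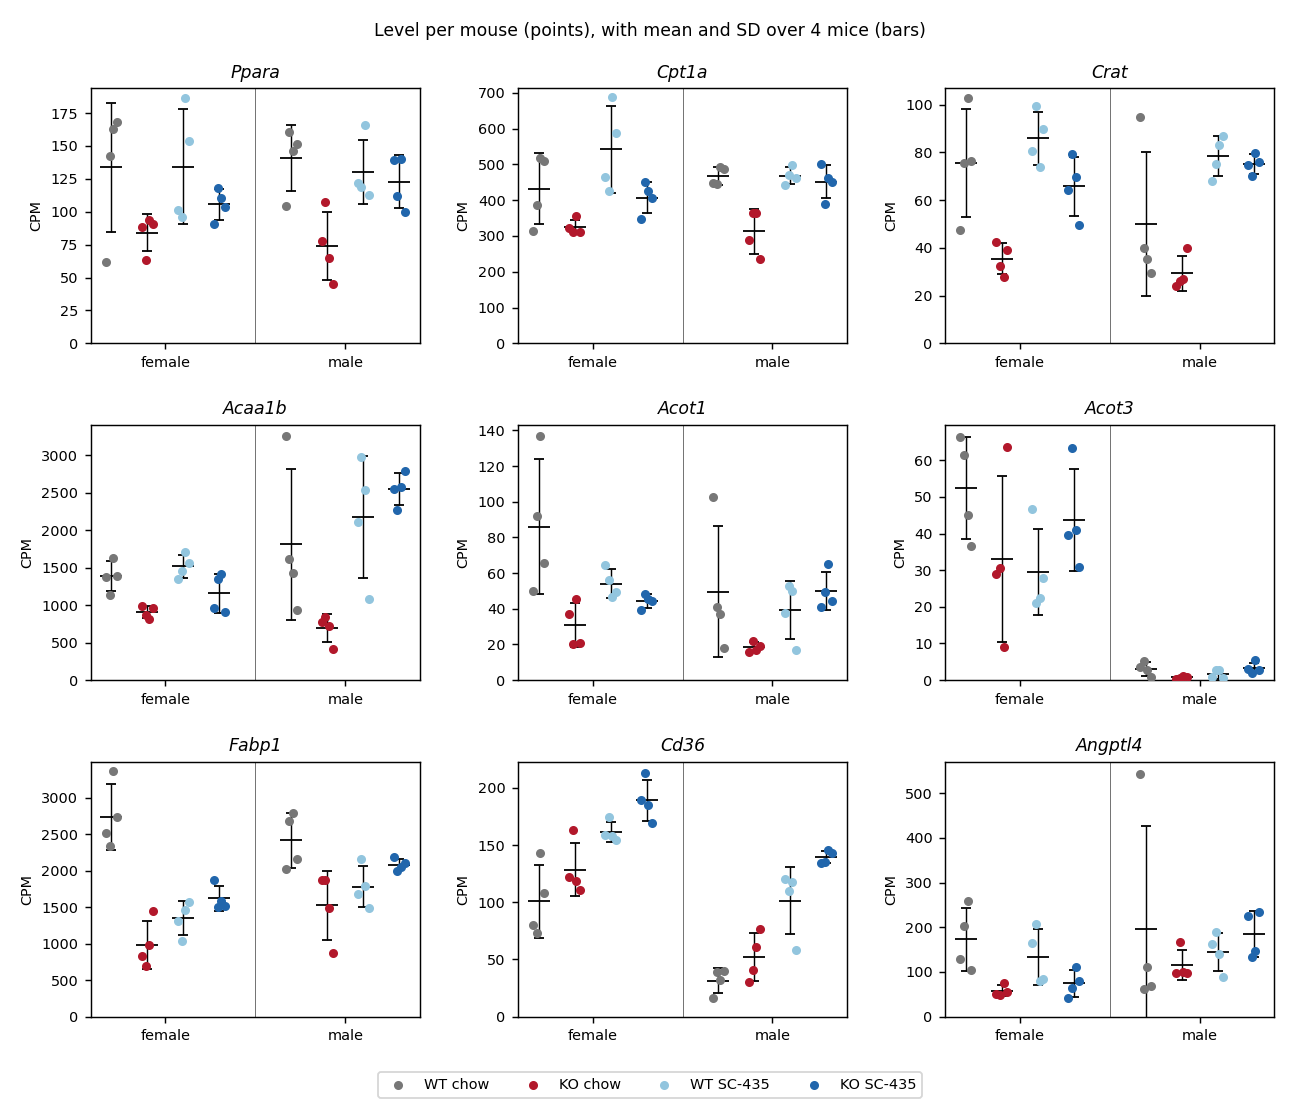
CPM in each mouse (points), with mean and SD of 4 mice (bars), for 9 members; each panel has its own axis from 0, and colours mark the 4 groups of each sex. Fabp1 is lowest in female KO mice on chow, Cd36 is higher on SC-435 in both sexes, and Acaa1b in male KO mice is at 419 to 844 CPM on chow and at 2267 to 2794 CPM on SC-435.

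In female WT mice, where muricholic acids are made, SC-435 lowered 3 members and raised none, against 1.88% lower and 2.4% higher of 15739 genes (edgeR). Fabp1 was at 1309, 1036, 1462 and 1573 CPM on SC-435, all below the chow-fed WT mice (-1.02 ± 0.15, edgeR adjusted p = 0.01), and kept its call in all 16 alternative settings. Bdh1 was at 262, 212, 285 and 263 CPM (-0.53 ± 0.11, edgeR adjusted p = 0.025), and Acaa2 was at 772, 766, 763 and 732 CPM (-0.31 ± 0.08, edgeR adjusted p = 0.049). The calls of the last 2 were weak. That of Acaa2 was lost without any 1 of the 8 mice (adjusted p up to 0.16), and that of Bdh1 without any 1 of 6 (up to 0.083), all but WT replicate 1 on chow and WT replicate 3 on SC-435. The count was 1 without WT replicate 2 or 4 on chow or on SC-435. The median over the members was -0.11.

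The direction of Fabp1 under SC-435 differed by genotype in females, and the difference itself was tested. The interaction term called 3 members, all higher in KO than in WT mice, where 0.859% of 16882 genes were called in that direction (edgeR). Fabp1 moved by 0.70 in KO and by -1.02 in WT mice (difference 1.72 ± 0.27, edgeR adjusted p = 0.014). In mean CPM, the 4 groups stood in the order WT on chow, KO on SC-435, WT on SC-435 and KO on chow, and neighbours among the last 3 groups overlapped. Hadha moved by 0.42 and -0.15 (0.56 ± 0.12, edgeR adjusted p = 0.028), and Acaa2 by 0.21 and -0.31 (0.52 ± 0.12, edgeR adjusted p = 0.032).

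Fabp1 kept the interaction call in all 22 alternative settings. Hadha lost it without WT replicate 3 on chow, without KO replicate 2 or 3 on chow, and without replicate 1, 2 or 3 of either SC-435 group (adjusted p from 0.052 to 0.074). Acaa2 lost it without WT replicate 3 on chow, without KO replicate 1 or 2 on chow, without KO replicate 1, 2 or 3 on SC-435, and without any WT mouse on SC-435 (0.052 to 0.080). The count was 1 without WT replicate 3 on chow, without KO replicate 2 on chow, or without replicate 1, 2 or 3 of either SC-435 group. It was 6 without KO replicate 4 on chow and 5 without KO replicate 4 on SC-435.

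In male WT mice, SC-435 called none of the 35 members tested (Fgf21 was too low to be tested), and only 0.0131% higher and 0.0263% lower of 15211 genes (edgeR). At an unadjusted p under 0.05, 4 members were higher and none lower, DESeq2 called 2, and voom called 12. The share of all genes is not given for these rules, so the counts cannot be set against it. The 4 members whose groups did not overlap were Cd36, Pdk4, Pex11a and Crot, all higher on SC-435, as held for 3.94% of all genes. Cd36 was at 16.1, 38.9, 31.6 and 39.6 CPM on chow and at 121, 110, 118 and 58.2 CPM on SC-435 (1.68 ± 0.33, edgeR adjusted p = 0.19). Pdk4 was at 8.93, 29.7, 9.76 and 14.9 CPM on SC-435 (1.72 ± 0.49, edgeR adjusted p = 0.48). Without WT replicate 1 on chow, Cd36 (1.46), Crat (1.16), Cpt2 (0.44) and Pdk4 (2.12) were called higher. Summed clock genes were at 426 to 825 CPM on chow and 362 to 655 CPM on SC-435. Log2 fold changes of single clock genes ran from -1.72 (Bhlhe41) to 1.08 (Arntl), with none called. Their part in the members' levels was not tested. The interaction with genotype called no member in males, with 0.0906% of 16555 genes called, and none without WT replicate 1 on chow either. At an unadjusted p under 0.05, 21 members were higher, and DESeq2 called 2 and voom 3, again without the share of all genes.

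Set against WT mice on chow, female KO mice on SC-435 had 13 members lower and 1 higher, against 7.3% and 8.73% of 15881 genes (edgeR). The members' median was -0.26. The lower members included Plin2 (-0.86), Fabp1 (-0.75), Pex11a (-0.86), Eci2 (-0.88), Acot1 (-0.95), Angptl4 (-1.21), Vnn1 (-1.37), which encodes the pantetheinase of coenzyme A turnover, and Fgf21 (-2.18). Cd36 was the member that was higher (0.92 ± 0.18, edgeR adjusted p = 0.0077). Of the members called, Crot, Eci2, Pex11a, Bdh1, Fabp1, Cd36, Plin2 and Vnn1 kept their call in all 16 alternative settings. The call of Acot1 was lost without WT replicate 2 on chow or any KO mouse on SC-435 (adjusted p up to 0.066). That of Angptl4 was lost without WT replicate 2 or 3 on chow or KO replicate 1, 2 or 4 on SC-435 (up to 0.083). The call of Fgf21 was lost without WT replicate 2 or 3 on chow, without any KO mouse on SC-435 and with the replicate block (up to 0.10). Crat (-0.19 ± 0.20), Acaa1a (0.10 ± 0.11) and Hadha (-0.11 ± 0.10), all called in the chow contrast, were not called here. The count was 8 without WT replicate 2 on chow or without KO replicate 2 or 4 on SC-435, and 9 without WT replicate 3 on chow or KO replicate 1 on SC-435.

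Male KO mice on SC-435 differed from WT mice on chow in 1 member, Cd36 (2.13 ± 0.27, edgeR adjusted p = 0.03), where 0.169% of 15395 genes were called higher and 0.039% lower. Cd36 was at 134 CPM or more in the former and at 39.6 CPM or less in the latter. Its call was lost without any mouse other than WT replicate 1 (adjusted p 0.072 to 0.14). Without WT replicate 1, 14 members were called and all were higher, among them Pdk4 (2.58), Fgf21, Cd36 (1.92), Angptl4 (1.19), Crat (1.09), Acot2 (1.08) and Acaa1b (0.93). The share of all genes is not given for that fit, so the 14 cannot be set against it.

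Within WT mice on chow, 3 members were lower in males than in females and none was higher, against 0.747% in either direction of 15525 genes (edgeR). Acot3 was at 3.53, 5.18, 2.68 and 0.721 CPM in males and at 36.5 CPM or more in every female (-4.09 ± 0.54, edgeR adjusted p = 0.0056), the largest sex difference among the members called. Acot4, its neighbour on chromosome 12 with 3542 bases between them, was lower by -1.44 ± 0.26, and Cd36 by -1.65 ± 0.33. Acot3 kept its call in all 15 alternative settings. The call of Cd36 was lost without any mouse other than male replicate 1 (adjusted p 0.084 to 0.16), and that of Acot4 without any female or without male replicate 3 or 4 (0.056 to 0.11). The count was 1 without female replicate 1, 2 or 3 or male replicate 3 or 4. Without male replicate 1 it was 12, and the others were Fgf21, Crat, Crot, Bdh1, Acot1, Acot2, Plin2, Pdk4 and Vnn1. The share of all genes is not given for that fit, so the 12 cannot be set against it. Summed clock genes were at 426 to 825 CPM in males and 310 to 595 CPM in females. Log2 fold changes of single clock genes ran from -2.34 (Npas2) to 3.74 (Bhlhe41), with none called. Their part in the members' levels was not tested.

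Whether the sexes responded alike was tested as well. The difference in the genotype contrast called no member and 0.0235% of 17026 genes. At an unadjusted p under 0.05 there were 5 members, and DESeq2 called none and voom 4, again without the share of all genes. Without male WT replicate 1 on chow, Angptl4 (-2.09) and Plin2 (-1.08) were called, with a lower fold change in females. The difference in the response to SC-435 called 1 member, Acaa1b, and 0.111% of 17069 genes were called in that direction. Acaa1b rose by 1.85 in male KO mice, and in female KO mice it was at 963, 1350, 1408 and 909 CPM on SC-435 with a log2 fold change of 0.34 ± 0.16 (female minus male -1.53 ± 0.27, edgeR adjusted p = 0.03). That call was lost (adjusted p 0.0502 to 0.083), and the count fell to 0, without any mouse other than female replicate 4 on chow and male replicates 1, 2 and 4 on chow. It was 2 without male KO replicate 2 or 4 on chow. For all 36 members the median of this difference was -0.40, and 34 lay below 0.

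Other genes of the same pathways, grouped by role, moved in these comparisons too. In female KO mice on chow, 5 of 9 other peroxisomal genes, 3 of 5 genes of fatty acid activation and carnitine uptake, 2 of 5 other ketone body genes, 2 of 8 other mitochondrial genes and 2 of 7 genes of omega-oxidation were lower and none was higher. Of 9 further lipid genes tested, 5 were lower and 1 higher. The lowest of the peroxisomal genes was Abcd2, a fatty acyl-CoA transporter, at -0.77, and the lowest ketone body gene was the thiolase Acat1 at -0.90. Among 10 partners and co-regulators of PPARalpha, 2 were lower, of which Lpin1, a phosphatidate phosphatase and coactivator, had the lowest log2 fold change (-1.61).

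In male KO mice, SC-435 raised 6 of 9 other peroxisomal genes, 6 of 8 other mitochondrial genes, 5 of 7 genes of omega-oxidation, 3 of 5 genes of activation, 2 of 5 ketone body genes and 6 of 9 further lipid genes tested, and lowered none. Cyp4a14, a fatty acid omega-hydroxylase whose family members share sequence, was the highest of them at 4.72 ± 0.36 (edgeR adjusted p = 0.00019). Pparg, the relative of Ppara that leads fat storage, rose by 1.98, the highest of 2 called among the 10 partners. In female KO mice, SC-435 raised 4 of 9 other peroxisomal genes, 3 of 8 mitochondrial and 3 of 5 activation genes, with Acsl5, an acyl-CoA synthetase, the highest of the activation genes at 0.90. It raised 1 of 5 ketone body genes (Acat1, 0.57). Calls went both ways in the other lists, with 2 higher (Lpin1 the highest, 1.24) and 2 lower (Ppard the lowest, -0.56) of 10 partners, 2 higher (Cyp4a14 the highest, 0.97) and 1 lower (Cyp4a31, -0.90) of 7 omega-oxidation genes, and 1 higher (Retsat, 0.52) and 2 lower (Plin4 the lowest, -1.05) of 9 further lipid genes.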

How the data were processed

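Poly-A RNA from 32 livers was sequenced. Per the labels, the submitters' processing notes name HISAT2 2.0.5, featureCounts 1.5.0-p3, DESeq2 1.20.0, GATK 4.1.1.0 and build mm10, and the library kit is given as either directional or non-directional, so reads from overlapping antisense genes may not be separated. The authors deposited raw read counts per gene for each mouse, which were analysed here, and FPKM values for the same 32 libraries, made by the authors from counts, gene length and depth, which were not used. Columns with the authors' own fold changes and p-values were not used.

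Counts were scaled by TMM and tested with edgeR 4.0.16 in R 4.3.3 (quasi-likelihood test, filterByExpr), with only the groups compared in each fit. Sex and genotype interactions used the 4 groups concerned. Standard errors (SE) were derived from the test, as the absolute log2 fold change divided by the square root of its F statistic. The threshold for a call was an adjusted p of 0.05. A prior count of 2 was used for log2 CPM values only, and not for the log2 fold changes, which came from the fits. CPM and RPKM values were computed with the TMM factors and the deposited gene lengths. Alternatives were DESeq2 1.42.0, limma 3.58.1 (voom), other scaling, no filter or a mean count of 50, the replicate number as a block, and leaving out each mouse. Shares of all genes are given for the reported edgeR fits and for groups that do not overlap. They are not given for unadjusted p or for these alternatives. The fits were tested on simulated data: for KO against WT on chow, edgeR found 60 of 98 genes changed by 1 on the log2 scale in females (15930 genes) and 4 of 98 in males (15549 genes).

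The labels do not say that same-numbered mice share a litter or day. Of 36 correlations between their deviations, 10 were over 0.1, and in no comparison were all of them, so the numbers were not taken as pairs. The highest, 0.431, was between replicate 1 of the male and of the female WT mice on chow. Its cause was not tested. No 2 libraries were duplicates. Depth is given as reads counted per library. Mice are separate samples in the labels, and whether they shared litters or cages is not given in the sources used here. The members and gene lists were chosen with earlier results of these data known. All members may be named. Values per mouse are given for Ppara, Cpt1a, Fgf21 and Pdk4 and, in each comparison of genotype or diet, for up to 3 called members with the highest and 3 with the lowest fold change whose groups do not overlap; those for Cd36 were added after its values were seen. Outside the members, counts and the highest and lowest called gene of a list are given. Spp1 and Alb are also named as the main part of their marker sums. Clock genes are given by their range, in some comparisons with names. Sequences are from RefSeq GRCm38.p6.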

Additional observations from a re-analysis of the deposited data

Results flagged for a closer look

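Among 14 members and 8 groups (112 sets of 4 mice), 11 sets held a mouse far from the rest of its group by Dixon's criterion. Chance alone meets that criterion in about 1 in 20 sets. In 6 of the 11 sets it was the same mouse, replicate 1 of the WT males on chow. In that mouse Crat was at 94.7 CPM (others 29.5 to 39.9), Acaa2 at 2500 CPM, Acaa1a at 611 CPM (279 to 300), Bdh1 at 484 CPM, Angptl4 at 542 CPM (61.8 to 112) and Fgf21 at 0.948 CPM.

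The other 5 sets were spread over groups. Fgf21 was at 1.01 CPM in male KO replicate 3 on chow, Angptl4 at 166 CPM in male KO replicate 2 on chow, Pdk4 at 11 CPM in male KO replicate 3 on SC-435, Acaa1a at 209 CPM in female KO replicate 4 on chow, and Bdh1 at 227 CPM in female KO replicate 4 on SC-435.

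In 4 members the test of a difference between responses was passed (edgeR). In females the response to SC-435 was higher in KO than in WT mice by 1.718 for Fabp1, 0.5645 for Hadha and 0.5154 for Acaa2 on the log2 scale. In KO mice the response of Acaa1b was lower in females than in males by -1.534.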

How the results depend on the processing

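Counts of members called are given with the value of the reported setting first. For the other settings the share of all genes is not given, so their counts cannot be set against it. For KO against WT on chow, 22 in females became 12 with library size alone, and 0 in males became 8 with DESeq2, 13 with the 4 groups of the sex in a single fit and 17 with voom, an alternative added after the data were seen. Scaling by library size alone moved the median of all genes by 0.174 in females and 0.293 in males. For SC-435 in KO mice, 9 in females became 18 with voom, and 22 in males became 8 with the single fit. For SC-435 in WT mice, 3 in females became 5 with DESeq2, and 0 in males became 2 with DESeq2, 1 with the single fit and 12 with voom. For KO on SC-435 against WT on chow in males, 1 became 0 with library size alone, 2 with DESeq2 and 17 with voom. The interaction with genotype went from 3 to 8 with DESeq2 and 12 with voom in females, and from 0 to 2 and 3 in males. The sex difference in WT mice went from 3 to 7 with DESeq2 and 15 with voom, its difference for the genotype contrast from 0 to 4 with voom, and for SC-435 in KO mice from 1 to 3 with DESeq2 and 3 with voom. The cause was not tested.

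With the replicate number as a block, the count was 5 for SC-435 in female KO mice, 0 for KO on SC-435 against WT on chow in males, and 0 for the sex difference in the response to SC-435, while 17 were called for KO against WT in females. The numbers do not pair the mice. Fgf21 turned sign for SC-435 in female KO mice, at 0.0127 with the block.

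Leaving out 1 mouse at a time, the counts ran from 8 to 24 (KO against WT, females), 0 to 4 (males), 4 to 12 (SC-435 in KO females), 16 to 25 (KO males), 1 to 3 (WT females), 0 to 4 (WT males), 8 to 19 (KO on SC-435 against WT on chow, females), 0 to 14 (males), 1 to 6 (female interaction), 0 to 0 (male interaction), 1 to 12 (sex in WT mice), 0 to 2 (sex by genotype contrast) and 0 to 2 (sex by SC-435). Fgf21 in female KO mice ran from -0.363 to 0.361. Fits without a filter were not run for the interactions. On simulated data, changes of 1 on the log2 scale were mostly not detected between KO and WT males on chow. DESeq2 called more unchanged genes than edgeR in every contrast simulated, with 51 against 3 between KO and WT males on chow.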
